A study of Mus musculus with 8 samples.

Results

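Heat shock chaperone genes were followed in mouse livers 48 hours after partial hepatectomy. The set was fixed by name and holds 10 genes of the 19055 in the deposited table: the cytosolic HSP90 genes Hsp90aa1 and Hsp90ab1, the HSP70 and HSP110 genes Hspa8 and Hsph1, the J-domain (HSP40) genes Dnaja1 and Dnajb1, the small heat shock protein gene Hspb1, and the mitochondrial genes Hspa9, Hspd1 and Hspe1. All 10 were in the table and all 10 passed the filter on low values, which asks for at least 10 normalized reads in at least 3 libraries. The livers came from mice aged 8 to 9 weeks that had been given tamoxifen for 1 week, and every liver had been resected. The 3 controls carry the label URI(+/+)Hep and are described as wild-type littermates. The other 5 carry the label URI(+/D)Hep, with deletion of URI limited to hepatocytes by a tamoxifen-dependent Cre (creERT2) under serum albumin sequences; other liver cells are outside the reach of that Cre. The notation leaves a wild-type allele beside the D allele, and the labels do not say whether the controls carried the Cre. The groups are called by these labels throughout. Nothing in them states that each library is a separate mouse, so the p-values measure the spread between these libraries.

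Heat shock proteins bind unfolded chains and return them to a folded state. HSP70 proteins hold exposed stretches in cycles of ATP hydrolysis that J-domain proteins start and exchange factors end, and HSP90 takes over later folding steps of kinases, receptors and large assemblies. In mitochondria an HSP70 (mortalin, from Hspa9) pulls in imported chains, and the HSP60 barrel with its HSP10 lid (Hspd1 and Hspe1) folds them. Many of these genes are driven by the transcription factor HSF1, which binds inverted GAA units in their promoters when unfolded protein accumulates. URI is a prefoldin-like protein of an assembly that works as a partner of HSP90, which sets the question of how the chaperone genes stand when its gene is targeted in hepatocytes.

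The deposited values are read counts that were scaled by a size factor per library, called normalized reads here. Libraries were made from the 3′ ends of transcripts, so a transcript gives reads near its end whatever its length, and levels of different genes are set side by side as 3′ tag levels, without division by length. Depth ran from 3838674 to 4800694 reads. The targeted gene, Uri1, stood at 468, 374 and 310.05 normalized reads in controls 1 to 3 and at 328, 398, 437, 354 and 401 in URI(+/D)Hep livers 1 to 5, so that the ranges overlapped. Where the 3′ tags of Uri1 lie relative to the deleted stretch is not known here, so its reads did not check the labels. Summed hepatocyte markers (10 of 10 in the table, none at 0) reached 40204 to 50235 in the controls and 40699.7 to 44861 in the other group. The labels give the cells as epithelial, but markers of other liver cells were present too, and summed endothelial markers (6 of 6 in the table, none at 0) ranged from 1549 to 1998 in the controls and from 2102 to 2426 in the other group, without overlap. The 8 livers differed in division and in sex transcripts: the proliferation gene Mki67 reached 23.99 in control 1 and 49.5 in URI(+/D)Hep liver 5 against 268 to 586 in the others, Xist was under 10 normalized reads in controls 1 and 2 only, and the Y-linked sum was 3.54 in URI(+/D)Hep liver 1 against 569 to 1558 elsewhere. In 5 libraries, control 3 and URI(+/D)Hep livers 2 to 5, Xist (1217 to 1891) and Y-linked transcripts stood together. Whether such a library holds RNA of a single mouse or of several cannot be told here and was not tested. Numbered controls and livers therefore name libraries throughout. Summed bile duct markers were highest in controls 1 and 2 and in URI(+/D)Hep liver 5, with 1643, 1051 and 886 normalized reads against 220.1 to 341 in the other 5, with Sox9 at 1141 and 631 in controls 1 and 2 (108 to 175 elsewhere) and Epcam at 525 in URI(+/D)Hep liver 5 (7.96 to 29.96 elsewhere). The part of these features in the values below was not tested, and in whole tissue a smaller number of cells of a type and less RNA in each cell cannot be told apart.

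None of the 10 chaperone genes differed between the groups beyond the spread of the libraries. With limma, 0 of 10 passed an adjusted p of 0.05, where 0.0146% of the 13704 genes tested did in either direction. At an unadjusted p under 0.05 limma counted 0 of 10, against 17.7% of all genes tested. The ranges of the groups overlapped for all 10 genes, whereas they did not overlap for 13.4% of all genes tested (6.13% higher and 7.30% lower in URI(+/D)Hep). On recovered read counts, edgeR called 0 of 10 (0.0219% of all genes) and DESeq2 0 of the 9 to which it gave an adjusted p (4.97% of all genes it adjusted, 2.03% higher and 2.94% lower). The log2 fold changes, URI(+/D)Hep minus control on the log2(value + 1) scale, ran from -0.29 for Hspb1 to 0.55 for Hsph1, with 3 positive and 7 negative and a median of -0.11, beside a median of 0.00 over all genes tested.

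The 95% intervals show how large a change these libraries leave room for. For Hspa8 the interval was 0.76- to 1.05-fold of the control and for Hspd1 0.79- to 1.15-fold, so a 1.5-fold change in either direction lies outside both. Hsph1, with 0.77- to 2.78-fold, and Hspb1, with 0.51- to 1.31-fold, were the least precise. A p that misses the threshold does not show that the groups were alike. A level 1.5-fold higher is within the interval of Hsph1. A level 1.5-fold lower is within that of Hspb1 and, narrowly, within that of Hsp90aa1 (0.66- to 1.19-fold).

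**Figure D1:**
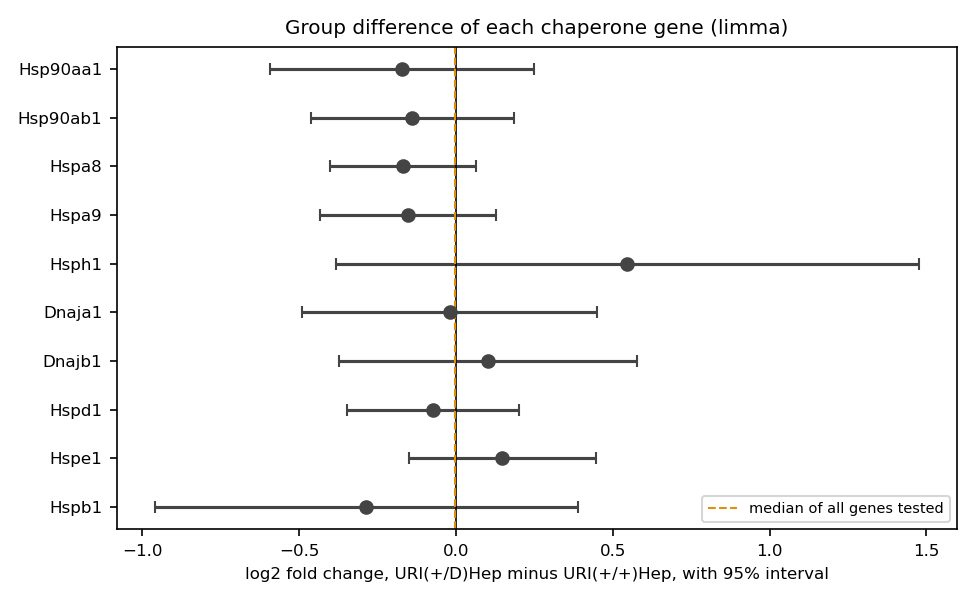
Each point is a chaperone gene's log2 fold change between the groups (horizontal axis, URI(+/D)Hep minus URI(+/+)Hep) from the limma fit of 13704 genes in 3 and 5 libraries, and bars are 95% intervals. All 10 intervals include 0, and the widest is that of Hsph1, from -0.38 to 1.48.

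Hsp90ab1, which encodes the constitutive cytosolic HSP90, had the highest 3′ tag level of the set. It reached 7159.7, 8709 and 10317 normalized reads in controls 1 to 3. In URI(+/D)Hep livers 1 to 5 it stood at 7869.6, 8031, 8216, 8475 and 6735. The highest liver was control 3 and the lowest was URI(+/D)Hep liver 5, with control 1 next to it, so the group labels did not order the libraries. The means were 8729 ± 1579 (SD, n = 3) and 7865 ± 671 (SD, n = 5), a log2 fold change of -0.14 (standard error 0.14, adjusted p = 0.651 in limma), which was -0.27 without control 1 and -0.01 without control 3. Hsp90ab1 alone made up between 52.3% and 59.7% of all reads of the 10 genes in each library.

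Hsp90aa1, the stress-inducible cytosolic HSP90, followed a like order of livers at a lower level. Controls 1 to 3 had 712, 928 and 1207 normalized reads, and URI(+/D)Hep livers 1 to 5 had 893, 856, 763, 990.1 and 655. Again control 3 was highest and URI(+/D)Hep liver 5 lowest. Its log2 fold change was -0.17 (standard error 0.19, adjusted p = 0.671 in limma). That difference was -0.36 without control 1 and 0.02 without control 3. With the Y-linked share of reads as a covariate it was -0.35. The ratio of Hsp90aa1 to Hsp90ab1, which does not depend on how a library was scaled, stayed between 0.0996 and 0.117 in the controls and between 0.0929 and 0.117 in the other group. Its difference on the log2 scale was -0.03, with a two-sided exact permutation p of 0.732 over 56 assignments of the labels (0.732 after adjustment over the 2 ratios tested).

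Hspa8, the constitutive HSP70 known as HSC70, was the most even of the 10 genes. It stood at 643, 789 and 778 normalized reads in the controls and at 645, 710.2, 665, 609 and 637 in the URI(+/D)Hep livers. Controls 2 and 3 lay above all 5, and control 1 lay among them. The log2 fold change was -0.17 (standard error 0.10, adjusted p = 0.424 in limma). It was -0.26 without control 1 (unadjusted p = 0.0231 in limma) and -0.12 without control 2. Over the 8 libraries its log2 values had an SD of 0.14, lower than in all but 7.03% of the genes tested.

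Hsph1, the HSP110 that exchanges nucleotide on HSP70, varied most. Controls 1 to 3 stood at 80.4, 199.9 and 296 normalized reads. URI(+/D)Hep livers 1 to 5 stood at 337, 306, 160.4, 297 and 184. The highest library was 4.19 times the lowest, which was control 1, and both groups held low and high livers. The means were 192 ± 108 (SD, n = 3) and 257 ± 79.2 (SD, n = 5), a log2 fold change of 0.55 (standard error 0.41, adjusted p = 0.519 in limma). Its SD of 0.69 on the log2 scale over 8 libraries was above that of 88.0% of the genes tested. The size of the difference turned on single controls: it was 0.02 without control 1 and 0.95 without control 3 (unadjusted p = 0.0433 in limma). With the Y-linked share of reads as a covariate it was 0.07. The same 4 livers, controls 1 and 2 and URI(+/D)Hep livers 3 and 5, were the lowest for Hsph1 and for Mki67, and the part of division in the values of Hsph1 was not tested.

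The promoter of Hsph1 is shown because it is the member with the widest spread. From the RefSeq promoter table, build GRCm38.p6, the 160 bases before its start read as follows on the minus strand at chr5:149636337-149636496, with CCAAT boxes (in either orientation) and the GAA units of a heat shock element in capitals.
Hsph1: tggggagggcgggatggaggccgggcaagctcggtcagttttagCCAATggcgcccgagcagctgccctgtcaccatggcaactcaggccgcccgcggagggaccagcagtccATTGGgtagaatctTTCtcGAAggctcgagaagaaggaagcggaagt
A pair of inverted units, TTCNNGAA, lies 33 to 26 bases before the start. The 2-unit motifs searched, GAANNTTC and TTCNNGAA, read the same on both strands, and 12.8% of the 32851 promoter windows of the same length (250 bases before a start) hold at least 1 of them. CCAAT in either orientation is in 33.8% of windows. A match of letters is a description and does not show that a factor binds there.

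Inducible HSP70 was present at a low level. Hspa1b, which is not among the 10 genes and belongs to the list of other HSP70 genes, stood at 6.00, 9.85 and 25.7 normalized reads in the controls and at 53.04, 44.4, 15.5, 27.2 and 31.6 in the URI(+/D)Hep livers. Control 3 lay above liver 3 of the other group, so the ranges overlapped. This gave a log2 fold change of 1.37 (standard error 0.50, adjusted p = 0.213 in limma). Its neighbour Hspa1a stood at 7.07 or less in every library, and the transcripts of Hspa1a and Hspa1b are 99.3% identical over 2209 aligned bases in the GENCODE annotation of build GRCm38, so reads from that stretch may be split between them. The match ends at base 2210 of 2967 of Hspa1a and base 2214 of 2803 of Hspa1b, so their 3′ ends lie outside it. Summed, they stood at 11.99, 14.8 and 27.9 against 60.1, 49.9999, 21.3, 30.9 and 38.6, with a two-sided exact permutation p of 0.0536. In these libraries 3 reads equal 2.65 to 3.60 normalized reads, so the lowest of these values rest on a handful of reads.

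The J-domain genes Dnaja1 and Dnajb1, whose proteins start the ATP cycle of HSP70, ordered the livers alike without following the labels. Dnaja1 stood at 628, 739 and 996 normalized reads in controls 1 to 3 and at 994, 765, 607, 910.5 and 615 in URI(+/D)Hep livers 1 to 5. Dnajb1 stood at 124, 145 and 189.9 in the controls and at 223, 176, 129.5, 163 and 133 in the other group. In both genes control 3 and URI(+/D)Hep livers 1 and 4 were among the 4 highest, and control 1 and URI(+/D)Hep livers 3 and 5 were the 3 lowest. The log2 fold changes were -0.02 (standard error 0.21, adjusted p = 0.970 in limma) and 0.10 (standard error 0.21, adjusted p = 0.836 in limma). Both changed sign under other settings, among them the fit without control 3 for Dnaja1 (0.16) and that without control 1 for Dnajb1 (-0.04).

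Hspb1, the small heat shock protein HSP27 (HSP25 in mouse), which holds unfolded chains without ATP, was the lowest of the 10. It stood at 13.2, 14.8 and 26.8 normalized reads in the controls and between 11.6 and 17.8 in the URI(+/D)Hep livers. Control 3 lay above every other library. Hspb1 had a log2 fold change of -0.29 (standard error 0.30, adjusted p = 0.656 in limma). That difference was -0.47 without control 1 and 0.01 without control 3. Hspb8, a small heat shock protein of the list of other such genes, was far more abundant, at 2336 ± 545 (SD, n = 3) against 1437 ± 333 (SD, n = 5). Its log2 fold change was -0.70 (standard error 0.21, adjusted p = 0.148 in limma); URI(+/D)Hep liver 3, at 1954, lay above control 1, at 1872.

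**Figure D2:**
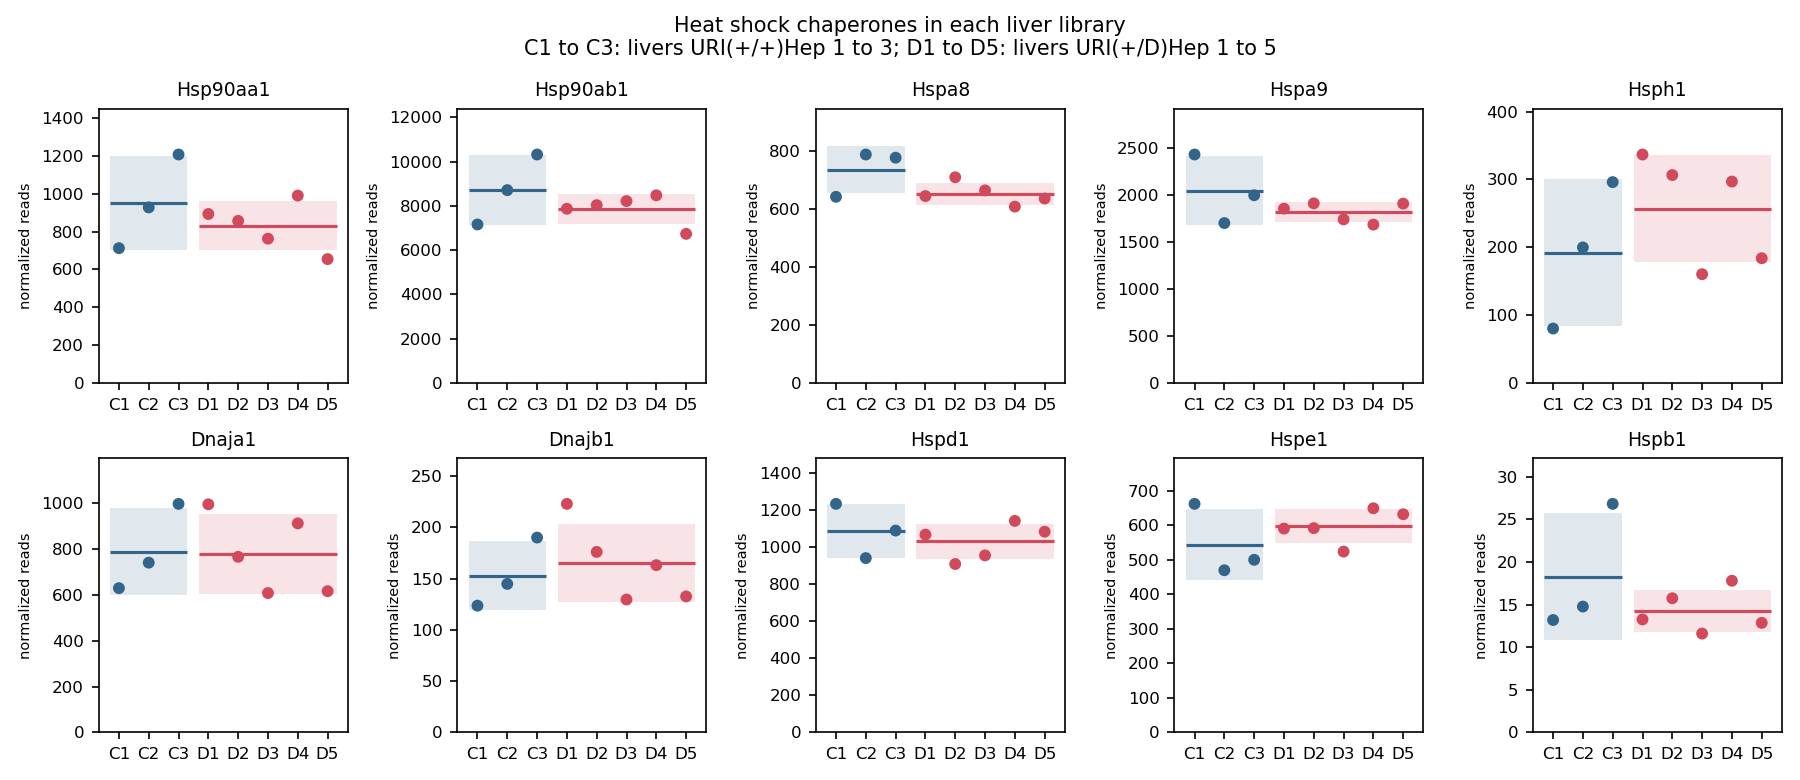
Normalized reads (vertical axis, from 0) of each chaperone gene in 3 control livers (C1 to C3, blue) and 5 URI(+/D)Hep livers (D1 to D5, red); points are libraries, lines group means and shaded bands ± 1 SD. The groups overlap in every panel, and Hsph1 shows the widest spread relative to its level, from 80.4 to 337.

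Hspa9, the mitochondrial HSP70, stood at 2432, 1702 and 1999 normalized reads in controls 1 to 3. In URI(+/D)Hep livers 1 to 5 it stood at 1856, 1912, 1742, 1686 and 1909.8. Control 1 was the highest of the 8, while control 2 was among the 3 lowest. Hspa9 had a log2 fold change of -0.15 (standard error 0.12, adjusted p = 0.551 in limma), which was -0.28 without control 2 and -0.02 without control 1.

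Hspd1 and Hspe1 encode the barrel and the lid of the mitochondrial chaperonin and lie head to head. Their shared promoter is shown because the ratio of the pair is the comparison that came closest to a group difference. The stretch between the starts of the main GENCODE transcripts Hspd1-201 and Hspe1-201, chr1:55088025-55088131 on the plus strand of GRCm38.p6, was taken from the RefSeq promoter table, and the GAA units of the heat shock element are in capitals. Another transcript of Hspd1 in that annotation starts beyond it.
Hspd1-Hspe1: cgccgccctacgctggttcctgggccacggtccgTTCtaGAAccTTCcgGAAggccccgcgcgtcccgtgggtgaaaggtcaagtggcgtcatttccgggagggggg
The element holds 4 inverted units, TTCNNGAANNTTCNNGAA, which read the same on both strands, from 89 to 72 bases before the RefSeq start of Hspe1 and from 144 to 127 bases before a RefSeq start of Hspd1. This 4-unit motif is in 4 of the 32851 promoter windows, 2 of which are these windows of Hspd1 and Hspe1, and either 3-unit motif (GAANNTTCNNGAA or TTCNNGAANNTTC) is in 0.466% of windows. Of the 10 members, 6 had windows in the table, namely Hspd1, Hspe1, Dnaja1, Hspb1, Hsph1 and Dnajb1. A 2-unit motif was found for each of these other than Dnajb1, beside 12.8% of all windows. Dnaja1 has 3 windows and Hspd1 has 2, not all of which hold it. The matches of Hspd1 and Hspe1 are the same element.

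Neither gene of the pair differed on its own. Hspd1 stood at 1233, 940.3 and 1089 normalized reads in controls 1 to 3 and at 1067, 908, 955, 1141 and 1083 in URI(+/D)Hep livers 1 to 5, a log2 fold change of -0.07 (standard error 0.12, adjusted p = 0.790 in limma). Hspe1 stood at 662, 469.7 and 499.9 in the controls and at 590.5, 592, 524, 649 and 632 in the other group, a log2 fold change of 0.15 (standard error 0.13, adjusted p = 0.595 in limma), which was 0.30 without control 1 (unadjusted p = 0.0256) and 0.05 without control 2. Control 1 was the highest library for both genes. Controls 2 and 3 lay below all 5 URI(+/D)Hep livers for Hspe1.

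The ratio of Hspe1 to Hspd1 was higher in every URI(+/D)Hep liver than in every control. It was 0.537, 0.50 and 0.460 in controls 1 to 3 and 0.554, 0.652, 0.549, 0.569 and 0.584 in livers 1 to 5 of the other group. The lowest of the latter, 0.549, lay just above control 1. The mean difference on the log2 scale was 0.22, that is 1.17-fold, with a two-sided exact permutation p of 0.0179, the smallest that 56 assignments can give (0.0357 after adjustment over the 2 ratios tested). Without control 3 the difference was 0.16 and the exact permutation p 0.0952. Without control 1 or without control 2 that p was 0.0476. With a control left out fewer assignments are possible, so the exact p cannot be as small as with all libraries.

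The difference was smaller, and the groups overlapped, when a copy of Hspd1 was counted with it. The table also lists Hspd1-ps3, a processed pseudogene of Hspd1 that was singled out after its values were seen. It stood at 112, 149 and 186 normalized reads in controls 1 to 3 and at 244, 238, 295, 333 and 299 in URI(+/D)Hep livers 1 to 5, and the groups did not overlap. The log2 fold change was 0.94 (standard error 0.18, adjusted p = 0.109 in limma), larger than that of any of the 10 members, and DESeq2 on recovered reads gave an adjusted p of 0.00151. Between libraries its level amounted to 9.05% to 30.9% of that of Hspd1.

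In the GENCODE annotation of GRCm38 the pseudogene, 1722 bases long, is 98.95% identical to Hspd1-201 over its whole length, with an identical run of 431 bases. Its annotated end matches base 1970 of the 2423 bases of Hspd1-201, so the last stretch of the Hspd1 transcript lies outside the match. The annotation used by the authors, and how reads matching both places were treated, are unknown here, so the split between the copies is uncertain. Summed, Hspd1 and Hspd1-ps3 stood at 1344, 1089 and 1275 in the controls and at 1311, 1146, 1249.7, 1474 and 1382 in the other group, which overlapped. The ratio of Hspe1 to that sum ran from 0.393 to 0.493 in the controls and from 0.420 to 0.517 in the URI(+/D)Hep livers. The log2 difference was then 0.06, with a two-sided exact permutation p of 0.571. The share of reads from mitochondrially encoded genes was 1.76 to 1.91% in the controls and 2.22 to 2.65% in the other group; its part in the ratio, and that of the endothelial markers, was not tested.

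**Figure D3:**
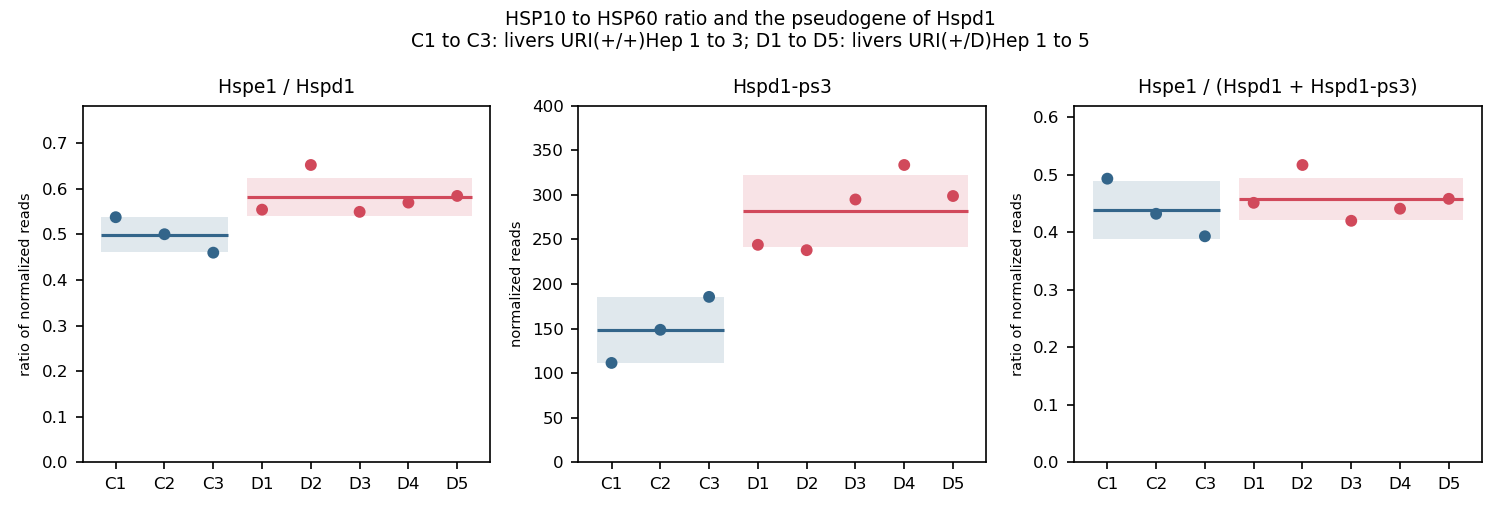
Ratio of Hspe1 to Hspd1 (left), normalized reads of the pseudogene Hspd1-ps3 (middle) and ratio of Hspe1 to the sum of Hspd1 and Hspd1-ps3 (right) in each liver (C1 to C3 controls, D1 to D5 labelled URI(+/D)Hep); lines are group means and bands ± 1 SD. The groups are apart in the left and middle panels and overlap in the right panel, at 0.393 to 0.493 against 0.420 to 0.517.

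In control 1 and URI(+/D)Hep liver 5 the cytosolic and the mitochondrial members lay on opposite sides of their means. Relative to each gene's mean over 8 libraries, all 7 cytosolic genes were low in control 1 and all 7 were high in control 3. The 3 mitochondrial genes were high in control 1, by 0.36, 0.24 and 0.21 on the log2 scale for Hspa9, Hspd1 and Hspe1. In URI(+/D)Hep liver 5 all 7 cytosolic genes were below their means and all 3 mitochondrial genes above. For Hspa9 and Hspd1 this was by only 0.01 and 0.05, and for Hspe1 by 0.14. The other livers did not show this division throughout: in control 3 Hspa9 and Hspd1 were also above their means, by 0.08 and 0.06, with only Hspe1 below, and in URI(+/D)Hep liver 3 all 3 mitochondrial genes and 6 of the 7 cytosolic genes were below. As a share of all reads, the 7 cytosolic genes made up 0.203% in control 1, 0.316% in control 3 and 0.211% in URI(+/D)Hep liver 5, with the other 5 livers between 0.247% and 0.270%. The mitochondrial share ran only from 0.0729% to 0.0940%. Control 1 and URI(+/D)Hep liver 5 are also the livers with the lowest Mki67, and control 1 held most Cirbp, an RNA-binding protein gene induced by cold, at 544 normalized reads against 91.2 to 176 in the other 7. Rbm3, the other such gene, stood at 82.7 in control 1 and between 22.5 and 40.6 elsewhere. The part of these features in the chaperone pattern was not tested.

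**Figure D4:**
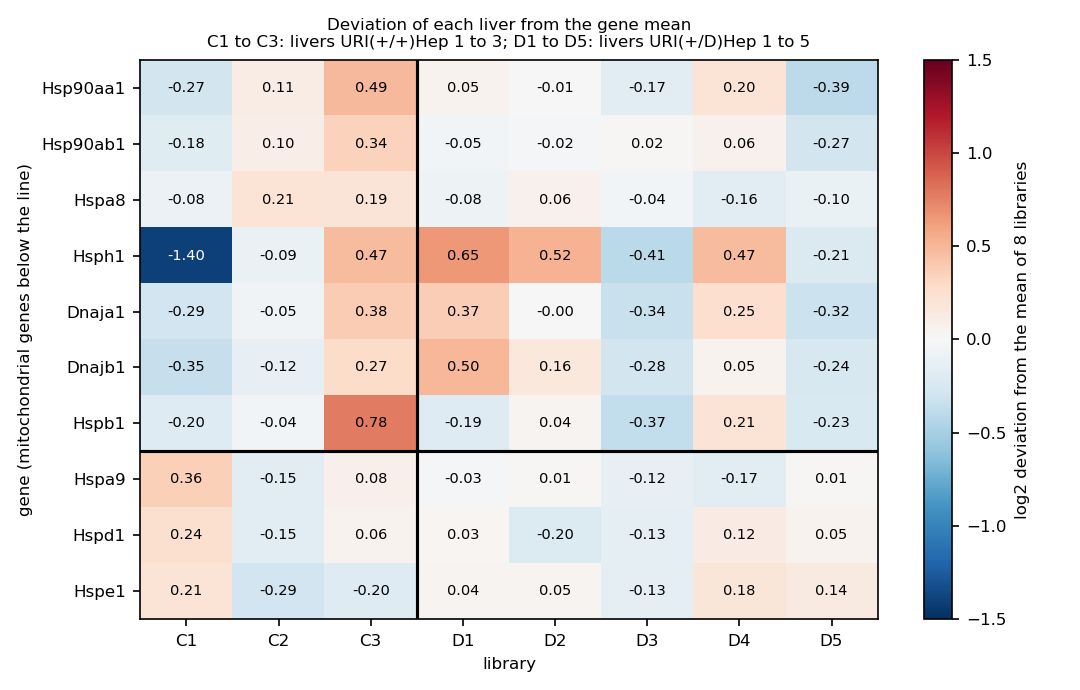
Log2 deviation of each gene (rows, mitochondrial genes below the line) from its mean over 8 libraries, in each liver (columns, C1 to C3 controls, D1 to D5 labelled URI(+/D)Hep); red is above and blue below the mean. The column of control 1 is blue for the cytosolic genes, down to -1.40 for Hsph1, and red for the mitochondrial genes.

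Pairs of members were compared over the 8 libraries on the log2 scale, 45 pairs in all, with exact permutation tests chosen after the values were seen. The closest were Hsp90aa1 with Hsp90ab1 (Pearson r = 0.94, exact permutation p = 0.00126; Spearman rho = 0.88, p = 0.00724) and Dnaja1 with Dnajb1 (r = 0.91, p = 0.00260; rho = 0.88, p = 0.00724). Hsph1 went with Dnajb1 (r = 0.85, exact permutation p = 0.00518; rho = 0.93, p = 0.00223). Without the 2 libraries farthest from the median of the first gene, r was 0.76, 0.83 and 0.90 for these pairs. Hspa8 and Hspe1 went in opposite directions (r = -0.86, exact permutation p = 0.00794; rho = -0.86, p = 0.0107), and r was -0.53 without controls 2 and 3. After adjustment over the 45 pairs 0 passed 0.05, the smallest adjusted p being 0.0569 for r and 0.0804 for rho. Hspd1 and Hspe1, which share a promoter, had r = 0.62. All points of a pair share a library and its scaling.

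The tested genes whose pattern over the 8 libraries was most like that of a member were sought as a description, the 3 with the highest Pearson r for each. For Hspa9 these were Arntl, a core clock transcription factor (r = 0.97), Pccb, a subunit of mitochondrial propionyl-CoA carboxylase (0.96), and Mcat, of mitochondrial fatty acid synthesis (0.96). Arntl stood at 278, 107 and 189 normalized reads in controls 1 to 3 and between 99.3 and 175 in the other group, so that it too was highest in control 1. For Hsph1 they were Mpzl2, Akr1c20 and Gpd1l (all r = 0.98). For Hsp90aa1 they were Cops7b, Pmf1 and Cdin1 (0.98, 0.97 and 0.97), and for Hsp90ab1 Nicn1, Mrpl42 and Miip (0.98, 0.98 and 0.97). Dnaja1 was most like Gm36041, Rpa1 and Keap1, and Dnajb1 most like Tle2, D030056L22Rik and Mfsd4b3-ps, with r between 0.97 and 0.98. For Hspd1 they were Gm21781, Rsrp1 and 5730414N17Rik (0.97, 0.96 and 0.96), and for Hspe1 Toe1, Zfp3 and Slc44a1 (0.97, 0.96 and 0.96). For Hspa8 they were Gjc1, Tnfaip8l1 and Faap100 (0.96, 0.94 and 0.92), and for Hspb1 Zfp35, H1f2 and Nthl1 (0.92, 0.92 and 0.91). The lists of the 10 members shared no gene. Each r is among the highest of 13704 genes over only 8 libraries, so high values come with the search. No test was made of them.

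None of the partners of these chaperones was called by limma. Levels did not overlap between the groups for 2 of 9 exchange factors and partners of HSP70 and for 1 of 25 co-chaperones of HSP90, all lower in URI(+/D)Hep, as was the case in this direction for 7.30% of all genes tested. Of the 9 exchange factors and partners of HSP70, 0 passed the threshold in limma or edgeR, 2 had an unadjusted p under 0.05, and DESeq2 called 2 lower and 0 higher, where 2.94% of all genes it adjusted were called lower. The 2 were Bag3 and Stub1. Bag3, an exchange factor that sends clients to autophagy, stood at 632, 593 and 602 normalized reads in the controls and at 468, 421, 431, 407 and 477 in the URI(+/D)Hep livers. The groups did not overlap. The log2 fold change was -0.47 (standard error 0.09, adjusted p = 0.114 in limma, DESeq2 adjusted p = 0.00216). Stub1, the ubiquitin ligase CHIP that acts on HSP70 and HSP90 clients, stood at 655 ± 114 (SD, n = 3) against 424 ± 47.0 (SD, n = 5), also without overlap (log2 fold change -0.62 with a standard error of 0.14, adjusted p = 0.115 in limma).

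Co-chaperones of HSP90 did not pass the threshold. Of 25 measured, 0 were called by limma, edgeR or DESeq2, 18 had a negative and 7 a positive log2 fold change, and the median was -0.08. At an unadjusted p under 0.05 limma counted 3 lower and 0 higher, where 9.33% of all genes tested were lower and 8.35% higher. Nudc, a co-chaperone that also serves the motor dynein, stood at 198 ± 24.8 (SD, n = 3) against 145 ± 15.8 (SD, n = 5) without overlap (log2 fold change -0.45 with a standard error of 0.14, adjusted p = 0.155 in limma). Tomm70a, the outer membrane receptor that accepts HSP90 and HSP70 clients for mitochondria, had a log2 fold change of -0.25 (standard error 0.10, adjusted p = 0.249 in limma).

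Other heat shock families were as mixed. Of 8 further HSP70 and HSP110 genes tested 6 were positive and 2 negative, with Hspa12a, a distant HSP70 relative, at 20.1 ± 0.720 against 35.2 ± 8.79 (limma adjusted p = 0.160). Of 25 further J-domain genes 13 were positive and 12 negative. The groups did not overlap for 3 of these 25, higher in URI(+/D)Hep, and for 1, lower. Among the 8 HSP70 and HSP110 genes this held for 1, Hspa12a, which was higher. Over all genes tested these shares were 6.13% higher and 7.30% lower. DESeq2 called 1 J-domain gene higher and 0 lower, where it called 2.03% of all genes it adjusted higher. Dnajc14 stood at 29.1 ± 8.58 against 66.3 ± 19.5 (log2 fold change 1.15, limma adjusted p = 0.120; DESeq2 adjusted p = 0.0234), and Dnajb5 at 40.8 ± 3.12 against 24.5 ± 4.67 (limma adjusted p = 0.147), both without overlap. In these lists limma and edgeR called 0 genes, and 2 higher and 0 lower in the former and 2 higher and 1 lower in the latter had an unadjusted limma p under 0.05, beside 8.35% higher and 9.33% lower among all genes tested. Hspb6, the only other small heat shock protein tested beside Hspb8, had a log2 fold change of 0.09.

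Among mitochondrial chaperones and proteases, 8 of 16 were negative and 8 positive. Limma called 0, with 2 lower and 0 higher at an unadjusted p under 0.05, and DESeq2 called 1 lower. Over all genes these shares were 9.33% lower and 8.35% higher in limma and 2.94% lower in DESeq2. Lonp1, the matrix protease that degrades unfolded protein, stood at 654, 635 and 769 normalized reads in the controls and at 501, 471, 561, 462 and 441 in the URI(+/D)Hep livers, without overlap (log2 fold change -0.49 with a standard error of 0.11, adjusted p = 0.115 in limma; DESeq2 adjusted p = 0.0104). Grpel1, the exchange factor of the HSP70 from Hspa9, stood at 687, 467 and 504 against 426, 421, 416, 419 and 405 (log2 fold change -0.38 with a standard error of 0.13, adjusted p = 0.184 in limma). Both lay below every control in all 5 livers, whereas Hspa9, Hspd1 and Hspe1 overlapped. Whether they differ in their response was not tested. Of the 16 genes, 2 were lower and 2 were higher without overlap of the groups, beside 7.30% and 6.13% of all genes tested.

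Heat shock factors were measured too. Of 6 factors and regulators tested limma and edgeR called 0, as did DESeq2 of the 3 to which it gave an adjusted p (Hsf5 had none). Of the 6, 1 was higher at an unadjusted p under 0.05 in limma, and 3 were positive. Hsf5 had a log2 fold change of 0.80 at a low level (11.4 ± 4.69 against 20.1 ± 5.14, limma adjusted p = 0.273), and Hsbp1, which binds HSF1, one of -0.28 (limma adjusted p = 0.340). Of 16 measured further genes known to be induced through HSF1, 10 were negative and 6 positive, with a median of -0.19. In limma 0 were called, with 2 higher and 6 lower at an unadjusted p under 0.05, beside 8.35% and 9.33% of all genes tested. DESeq2 called 4 of them lower and 0 higher, where it called 2.94% of all genes it adjusted lower and 2.03% higher. The 4 were Bag3, Serpinh1, Hspb8 and Ubqln1, the last named after its value was seen. The 2 higher at an unadjusted limma p under 0.05 were Hspa1b, given above, and Dnajb4, also named after its value was seen. Dnajb4 stood at 122, 156 and 175 normalized reads in the controls and between 181 and 190 in the URI(+/D)Hep livers. Its log2 fold change was 0.31 (standard error 0.13, adjusted p = 0.268 in limma). Of the 16, 4 were lower and 1, Dnajb4, was higher without overlap of the groups, beside 7.30% and 6.13% of all genes tested. Serpinh1, the collagen chaperone HSP47 of the endoplasmic reticulum, stood at 138 ± 18.6 (SD, n = 3) against 88.7 ± 7.56 (SD, n = 5), a log2 fold change of -0.63 (standard error 0.14, adjusted p = 0.115 in limma). Some genes are in more than 1 list.

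**Figure D5:**
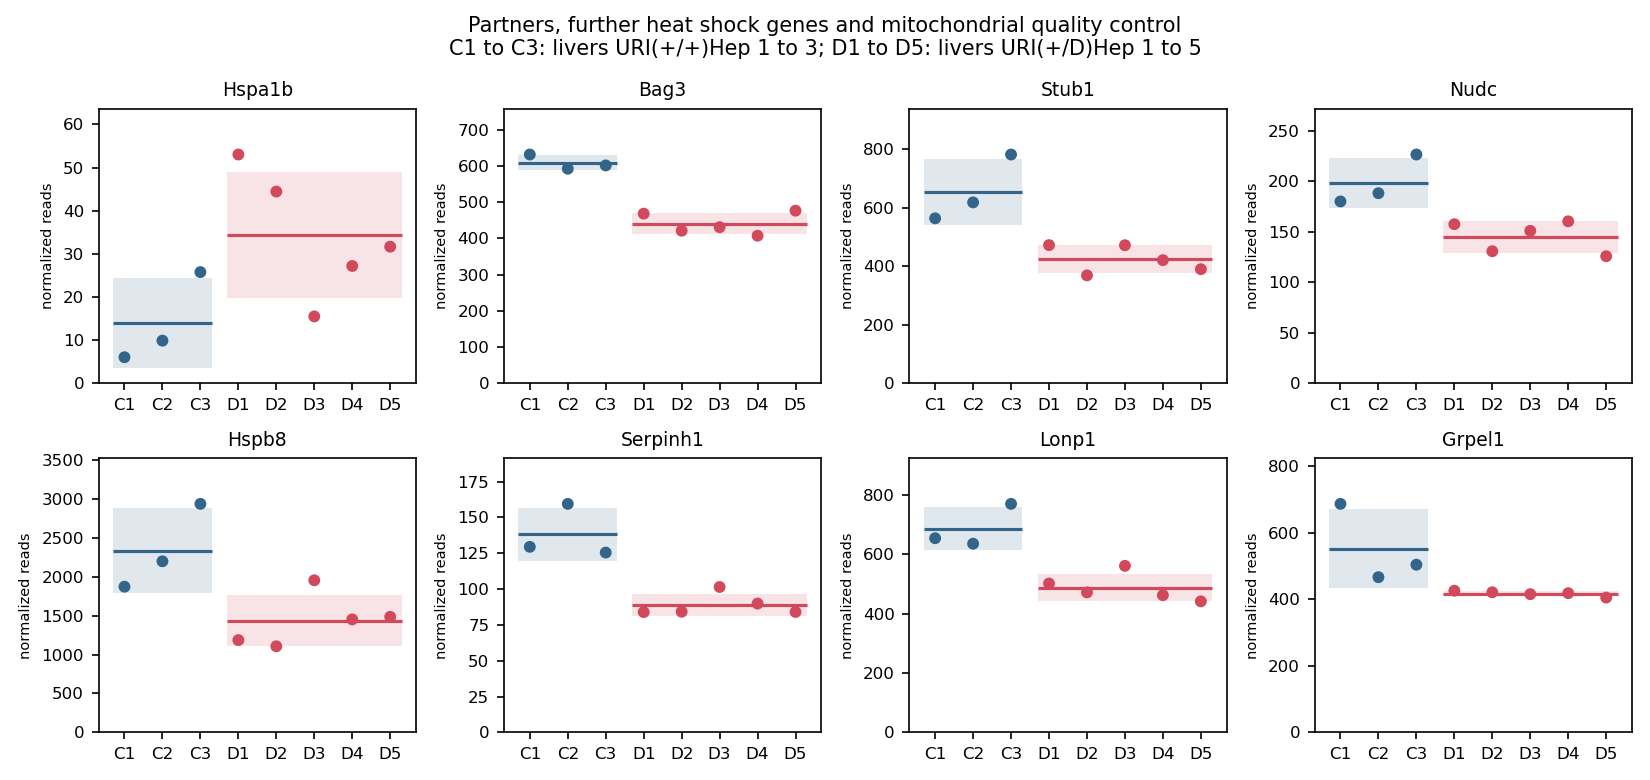
Normalized reads (vertical axis, from 0) of Hspa1b, partners of HSP70 and HSP90 (Bag3, Stub1, Nudc), further heat shock genes (Hspb8, Serpinh1) and mitochondrial quality control genes (Lonp1, Grpel1) in each liver (C1 to C3 controls, D1 to D5 labelled URI(+/D)Hep); lines are group means and bands ± 1 SD. Bag3, Stub1, Nudc, Serpinh1, Lonp1 and Grpel1 do not overlap between the groups, and Hspa1b and Hspb8 do. The genes are among those of smallest p in their lists, and 13.4% of all genes tested did not overlap. Hspa12a and Dnajc14 (higher) and Dnajb5 and Zfp36 (lower), chosen in the same way and also without overlap, are not drawn.

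Immediate early genes, which respond to handling of tissue as well as to growth signals, were measured as well. Of 12 tested 10 were negative and 2 positive, limma called 0 with 4 lower at an unadjusted p under 0.05 (9.33% of all genes tested), and the median log2 fold change was -0.47. The groups did not overlap for 1 of the 12, lower in URI(+/D)Hep, beside 7.30% of all genes tested. Zfp36 stood at 466 ± 57.9 (SD, n = 3) against 287 ± 55.1 (SD, n = 5) and Btg2 at 318 ± 166 against 138 ± 35.0, with limma adjusted p of 0.115 and 0.159; DESeq2 called these 2 lower, where it called 2.94% of all genes lower. Their part in the values of Bag3, Stub1, Serpinh1 and Lonp1 was not tested.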

How the data were processed

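The deposited table holds normalized signal for 19055 gene symbols, made by the authors from read counts by scaling with size factors. In the submitters' processing notes the tools bcl2fastq, featureCounts and DESeq2 and the build GRCm39 appear without versions. No aligner, annotation or treatment of the 6 nt molecular identifiers was given there. In each library the values were whole multiples of the lowest value above 0 (100% within 1e-06), so read counts could be recovered; in URI(+/D)Hep liver 5 that value is close to 1, so its reads are less certain.

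The test was limma 3.58.1 (R 4.3.3) with its trend on log2(value + 1), with Benjamini-Hochberg adjustment over 13704 genes with at least 10 normalized reads in at least 3 libraries. Recovered reads were also tested with edgeR 4.0.16 and DESeq2 1.42.0. The limma step was also run on simulated reads, with the same dispersion for all genes and larger changes than those of the members. Differences between livers in division, sex transcripts or cell content were not simulated. That run therefore does not show how the step performs on these livers. Transcripts were aligned with Biopython 1.88. The members, gene lists and alternatives were chosen with earlier results of these data known. Named genes are all members, the called or otherwise the 2 genes of smallest p of each list, and the 3 genes most like each member. RefSeq promoters are of another build, GRCm38.p6, and were used only for their sequence.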

Additional observations from a re-analysis of the deposited data

How the results depend on the processing

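Of 207 fits of single members under other settings, 0 called a member, and 195 kept its direction. The 12 that reversed had these log2 fold changes. On the 7 libraries other than URI(+/D)Hep liver 5, a setting chosen after seeing the data, Dnaja1 was at 0.050 in edgeR and 0.058 in DESeq2. Dnajb1 was at -0.18 once the Y-linked share entered the fit, and Hspd1 at 0.0025 without both control 1 and URI(+/D)Hep liver 5. With each library left out in turn, Hsp90aa1 lay between -0.36 and 0.018, Dnaja1 between -0.17 and 0.16, Dnajb1 between -0.038 and 0.27, Hspd1 between -0.17 and 0.022 and Hspb1 between -0.47 and 0.013. Leaving out control 3 turned Hsp90aa1, Dnaja1 and Hspb1, control 1 turned Dnajb1 and Hspd1, URI(+/D)Hep liver 1 turned Dnajb1, and URI(+/D)Hep livers 3 and 5 each turned Dnaja1. The log2 ratio of Hsp90aa1 to Hsp90ab1 lay between -0.088 and 0.028, above 0 without control 3 or URI(+/D)Hep liver 3. That of Hspe1 to Hspd1 lay between 0.16 and 0.28, with p above 0.05 only without control 3 (0.0952), and was 0.061 with the pseudogene, a setting also chosen after seeing the data. Over all genes limma called 0 higher and 2 lower. Higher genes numbered 1 where a mean of at least 50 was asked for, 234 in DESeq2, 126 in DESeq2 on 7 libraries and 1 without both control 1 and URI(+/D)Hep liver 5. Lower genes numbered 339 in DESeq2 and 257 in DESeq2 on 7 libraries, and 0 without the trend, with the replicate block, with the Y-linked share, without both those livers and in edgeR on 7 libraries. With each library left out in turn, higher genes ran from 0 to 10 and lower genes from 0 to 19, the highest counts being those without control 3. The cause was not tested. Replicate numbers gave no sign of pairing: deviations of same-numbered livers correlated at -0.40, -0.04 and -0.27. With the replicate block, Hsph1 was at 0.60 and Hspe1 at 0.08, uncalled. Hspb1 was not tested under the mean of 50 and got no adjusted p in DESeq2. The deposited scaling and TMM recentring put the median of all genes at 0.00 and -0.02.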
